A study of Saccharomyces cerevisiae with 24 samples.

Results

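The genes of sulfate assimilation, methionine synthesis and S-adenosylmethionine synthesis are described here, 10 in number, in budding yeast strains carrying mutations in the repressors Yhp1 and Yox1. They were MET17 (YLR303W), MET6 (YER091C), MET3 (YJR010W), MET14 (YKL001C), MET16 (YPR167C), MET5 (YJR137C), MET10 (YFR030W), MET2 (YNL277W), SAM1 (YLR180W) and SAM2 (YDR502C), taken by name as 10 of the 7126 genes in the expression tables, and all 10 were present in both tables. The set was selected on measured values, namely the TPM of MET17 in yhp1Δ and wild-type (WT) samples, so every comparison with yhp1Δ is given as a description with no test.

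Yhp1 and Yox1 are related homeodomain proteins that repress genes of the M/G1 interval, and both are substrates of the cyclin-dependent kinase Cdk1. RNA-seq was performed on asynchronous cells of the BY4741 background in rich medium (YM-1 with dextrose), in 2 sets with 4 groups of 3 samples each, 24 samples in all. The phosphomutant set held WT, both single mutants (yhp1-13A, yox1-9A) and their combination, in which Cdk1 phosphorylation sites were changed to alanine. The deletion set held a second series of WT samples, yhp1Δ, yox1Δ and yhp1Δ yox1Δ.

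All strains were MATa and carried ura3Δ0, leu2Δ0 and, per the labels, his3Δ0 (the strain table of the study lists his3Δ1). Every group except yhp1Δ also carried met15Δ0, a deletion of MET17 under its older name MET15, whereas yhp1Δ carried lys2Δ0 and an intact MET17. In both sets WT carried the tagged, unmutated alleles YOX1-3V5-KanMx and YHP1-13MYC-LEU2. The yox1-9A strain carried yox1-9A-3V5-KanMx, the yhp1-13A strain carried yhp1-13A-13MYC-LEU2, and the double phosphomutant carried both. The deletions were yhp1Δ::LEU2, yox1Δ::KanMX, and yox1Δ::NatMX with yhp1Δ::LEU2. The yox1-9A and yox1Δ strains were therefore the only groups without a LEU2 gene, and the single mutants and deletions lacked tags that WT carried. Each group was 1 strain, and because the labels do not say that its samples came from separate cultures, p-values measure only the spread between these samples.

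In yeast, sulfate is activated by Met3 (ATP sulfurylase) and Met14 (adenylylsulfate kinase), then reduced to sulfite by Met16 and to sulfide by the sulfite reductase subunits Met5 and Met10. Met17 joins sulfide to O-acetylhomoserine, which Met2 makes from homoserine, to form homocysteine. Met6 methylates homocysteine to methionine, and the paralogs Sam1 and Sam2 convert methionine to S-adenosylmethionine. Strains without MET17 cannot assimilate sulfate into homocysteine by this route and are methionine auxotrophs. The activator Met4 is brought to many of these genes by the DNA-binding proteins Cbf1 and Met31 or Met32.

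The stretches upstream of MET14 and MET10 are shown because they hold both motif types, that of MET17 because MET17 is the gene that separated the yhp1Δ samples, and that of MET6 because MET6 was the gene with the largest difference elsewhere. Each run covers bases 151 to 300 before the start codon, read 5′ to 3′ on the coding strand from the R64 genome. Capitals mark CACGTG (the Cbf1 motif) and TGTGGC or its reverse complement GCCACA (the Met31 and Met32 motif). The positions are chrXI:439536-439685 on the minus strand for MET14, chrVI:213012-213161 on the plus strand for MET10, chrXII:732242-732391 on the plus strand for MET17 and chrV:342318-342467 on the minus strand for MET6.
MET14: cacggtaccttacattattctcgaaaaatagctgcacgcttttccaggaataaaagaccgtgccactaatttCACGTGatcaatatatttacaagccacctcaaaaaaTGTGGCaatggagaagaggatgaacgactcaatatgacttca
MET10: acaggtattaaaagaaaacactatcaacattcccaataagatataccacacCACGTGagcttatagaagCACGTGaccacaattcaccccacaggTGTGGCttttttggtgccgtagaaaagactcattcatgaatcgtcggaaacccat
MET17: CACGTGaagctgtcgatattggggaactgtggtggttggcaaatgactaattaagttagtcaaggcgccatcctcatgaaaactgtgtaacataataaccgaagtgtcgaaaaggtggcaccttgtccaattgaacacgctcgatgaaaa
MET6: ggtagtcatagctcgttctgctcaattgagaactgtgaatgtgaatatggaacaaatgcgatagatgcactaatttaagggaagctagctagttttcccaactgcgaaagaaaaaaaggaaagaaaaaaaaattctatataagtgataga

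Over the full 300 bases upstream and on both strands, CACGTG was found for 4 of the 10 genes (MET14, MET16, MET10 and MET17) and in 3.55% of 6006 windows of the same length upstream of protein-coding genes. TGTGGC was found for 6 of the 10 (MET3, MET14, MET16, MET5, MET10 and SAM2) and in 8.09% of all windows. Both motifs occurred upstream of MET14, MET16 and MET10, against 0.433% of all windows. TAATTA, a homeodomain core, was found upstream of MET3 and MET17 and in 16.5% of windows. Its variant TAATTG was found upstream of MET5 and in 23.1% of windows. The Gcn4 motif TGACTC was found upstream of MET16 and MET5 and in 7.74% of windows. The windows of MET6, MET2 and SAM1 held none of these letters. The TGTGGC and TAATTG matches of MET5 overlap by 2 bases, and no other matches overlap. A match is a description of the sequence, not a bound site.

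**Figure D1:**
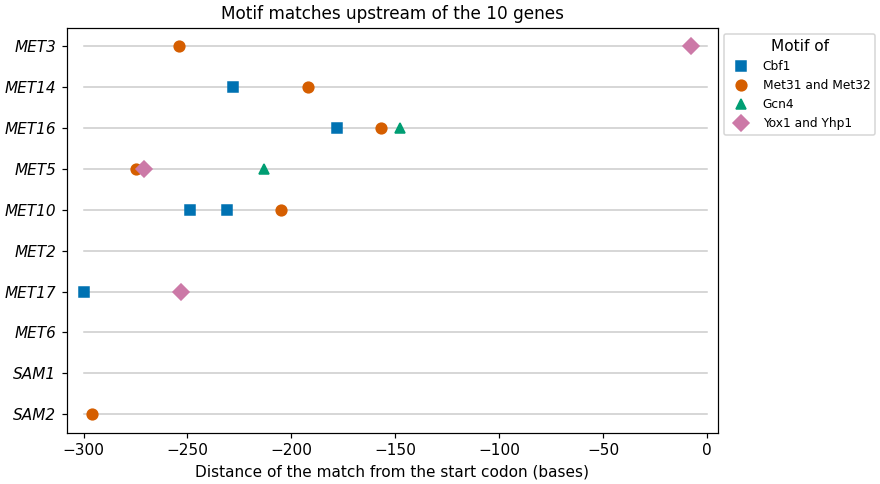
Motif matches in the 300 bases upstream of each of the 10 genes, by distance from the start codon in bases (x axis), with 1 line per gene and 1 symbol per match. The Cbf1 and the Met31 and Met32 motifs occur together upstream of MET14, MET16 and MET10, and the lines of MET2, MET6 and SAM1 hold no symbol.

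In R64 coordinates the coding sequences of the plus strand are MET3 at chrX:456239-457774, MET10 at chrVI:213312-216419, MET2 at chrXIV:117349-118809 and SAM1 at chrXII:515262-516410. Those of the minus strand are MET14 at chrXI:438777-439385, MET16 at chrXVI:876847-877632, MET5 at chrX:678957-683285 and SAM2 at chrIV:1453310-1454464. MET17 and MET6 are placed where they are described.

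Sequencing depth was even. Whole fragments recovered from the TPM values and gene lengths summed to between 16967873 and 18255340 per phosphomutant-set sample and between 18123679 and 18867894 per deletion-set sample. The 9 genes other than MET17 had from 332 fragments (MET16) to 16886 fragments (SAM1) in a sample. Samples differed in how gene levels varied with GC content. The slope of log2 deviations on GC fraction ran from -2.85 to 2.84 among phosphomutant-set samples. Among deletion-set samples it ran from -1.09 to 1.22. The labels held: YHP1 was at 0 TPM in the 3 yhp1Δ samples against 33.2 ± 3.51 (SD, n = 3) in WT of the deletion set, and LYS2 in yhp1Δ was at 0 to 0.043 TPM. YOX1 in yox1Δ was at 0.563 to 0.998 TPM, against 96.0 ± 11.2 in WT.

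In WT of both sets the genes spanned a wide range of levels in the same order. TPM, a transcript abundance scaled by gene length and by the total of the sample, lets levels of different genes be compared, so they can be set beside each other. In the phosphomutant set SAM1 was highest at 546 ± 130 TPM (SD, n = 3), followed by SAM2 at 130 ± 16.9 and MET6 at 108 ± 10.8. MET14 was next at 62.1 ± 17.9 TPM. The remaining sulfate and homocysteine genes lay lower, with MET3 at 28.0 ± 1.65, MET16 at 25.3 ± 4.12, MET2 at 19.5 ± 2.31, MET10 at 17.4 ± 1.07 and MET5 at 12.9 ± 1.09 TPM. In the deletion set the order ran from SAM1 at 571 ± 48.8 to MET5 at 12.5 ± 4.09 TPM. Neighbours whose WT samples overlapped in the phosphomutant set were SAM2 and MET6, MET3 and MET16, MET16 and MET2, and MET2 and MET10. SAM1 and SAM2 are paralogs, but only 1.82% of the 50-base stretches of SAM1 occurred in SAM2 and no 100-base stretch did.

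MET17, the O-acetylhomoserine sulfhydrylase gene at chrXII:732542-733876 on the plus strand, stood at an expressed level only in yhp1Δ, where its gene is intact. In the 3 yhp1Δ samples it stood at 131, 181 and 124 TPM (145.6 ± 31.2). The 3 WT samples of the deletion set had 0.345, 0.035 and 0 TPM. In yox1Δ the values were 0, 0 and 0.035 TPM, and in yhp1Δ yox1Δ they were 0.034, 0.033 and 0 TPM. All 12 samples of the phosphomutant set had 0 fragments, for which 3 fragments per sample is the limit that a count of 0 allows. The groups did not overlap, and the mean of MET17 in yhp1Δ lay between the WT means of MET6 and SAM2, 137 and 159 TPM.

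By fragments, MET17 had 3837, 5143 and 3696 in the 3 yhp1Δ samples and 10, 1 and 0 in the 3 WT samples. Of the 9 met15Δ0 samples in the deletion set, 5 held at least 1 MET17 fragment, the highest being 10 in WT replicate 1. On the log2(TPM + 1) scale the difference was 7.02, which understates a change from near 0. MET17 differed between these strains by its own deletion as well as by YHP1, and in the yhp1Δ yox1Δ strain, which also lacks YHP1 but carries met15Δ0, the gene was at 0.022 ± 0.019 TPM.

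The neighbouring gene ACO1 (aconitase), on the other side of MET17, had 94.0 ± 27.9 TPM in yhp1Δ and 87.5 ± 38.3 in WT of the deletion set, and these samples overlapped. YLR302C, an open reading frame on the opposite strand that shares 12 bases with MET17 and spans its upstream window, had 0.337 ± 0.145 TPM in yhp1Δ and 0 in WT. Reads in shared bases cannot be assigned between YLR302C and MET17 unless counting used strand, which is not given in the sources used here.

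The other 9 genes had small mean differences between yhp1Δ and WT, and none had samples wholly above or below WT. Their log2(TPM + 1) differences between yhp1Δ and WT ran from -0.17 for MET14 to 0.12 for MET3, with a median of 0.0062 against 0.013 over all 6311 genes. The SE of these differences ran from 0.084 for SAM1 to 0.23 for MET6, so changes of that size would not be resolved. MET6, which acts directly after Met17, stood at 117, 164 and 111 TPM in yhp1Δ and at 138, 172 and 101 TPM in WT. MET2, which makes the partner of sulfide, was at 22.1 ± 1.94 TPM in yhp1Δ and 23.3 ± 4.16 in WT. In MET6, MET5 and MET10, replicate 2 was the highest of both groups, and in MET14 and MET16 it was the lowest of both.

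**Figure D2:**
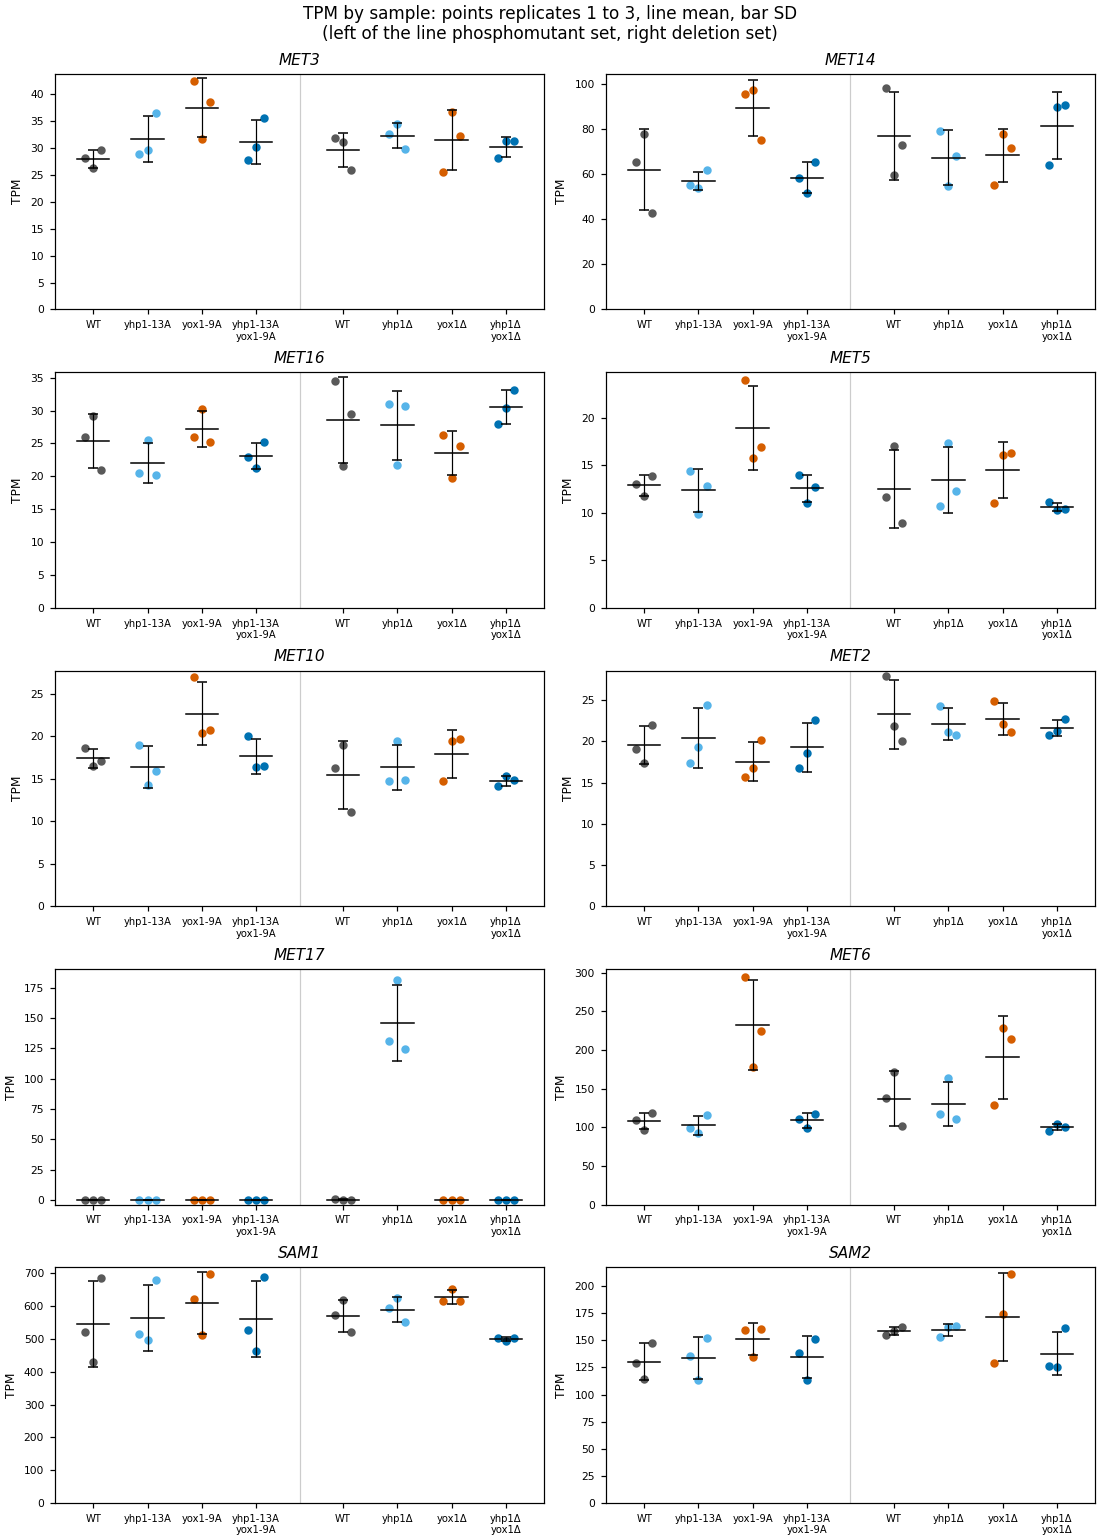
TPM (y axis, linear) of each of the 10 genes in the 8 groups, phosphomutant set left of the grey line and deletion set right of it. Points are replicates 1 to 3, horizontal lines are means and vertical bars are SD (n = 3). MET17 stands at 124 to 181 TPM in yhp1Δ and near 0 in all other groups, and MET6 is highest in yox1-9A.

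MET6, the methionine synthase gene at chrV:339864-342167 on the minus strand, was the only 1 of the 9 genes that passed the test in any tested comparison. In yox1-9A it stood at 295, 178 and 224 TPM (232 ± 58.7), above each of the WT samples of the phosphomutant set at 110, 96.9 and 118 TPM (108 ± 10.8). The difference was 1.07 on the log2(TPM + 1) scale (SE 0.17, 95% interval 0.70 to 1.44, limma adjusted p = 0.024). Genes passing this threshold made up 0.285% of the 6316 tested. The replicate numbers paired the yox1-9A and WT samples. They did not pair the other groups with WT throughout. Correlations of deviations ran from 0.0099 to 0.67 for yhp1-13A and from -0.24 to 0.56 for the double mutant. With the replicate as a block over all 12 samples of the set, MET6 had limma adjusted p = 0.0024. The calls over all genes then went from 18 to 52.

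The MET6 call depended on which samples were fitted together. With only the 3 yox1-9A and 3 WT samples in the fit, its limma adjusted p was 0.34. It was 0.13 without WT replicate 1 and 0.15 without WT replicate 2, and over 15 alternatives it ranged from 0.0024 to 0.34 while the difference stayed between 0.88 and 1.24.

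With both phosphomutant alleles MET6 overlapped WT. The yhp1-13A yox1-9A samples had 110, 99.3 and 118 TPM (109 ± 9.26), all below the yox1-9A samples, and the difference from WT was 0.01 (SE 0.17, 95% interval -0.36 to 0.38). The yhp1-13A samples had 99.1, 92.4 and 116 TPM. MET6 in the double mutant fell short of yox1-9A by a log2 difference of -1.06 (SE 0.17), a value with no test because it was chosen after the levels were seen. The interaction term for MET6 was -0.98 (SE 0.24), also chosen after the levels were seen, and it did not pass (limma adjusted p = 0.76). Genes passing for this term made up 0.0317% of the 6316 tested. Among the groups of this set only yox1-9A lacked LEU2 and the YHP1 tag. In this term an effect of the 2 alleles therefore cannot be told apart from those differences, and the cause was not tested.

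The sulfate assimilation genes MET14, MET5, MET3 and MET10 also had higher means in yox1-9A, but none passed the test. MET14 had 95.7, 97.3 and 75.1 TPM in yox1-9A and 65.5, 78.1 and 42.8 in WT, with overlapping samples and a log2 difference of 0.55 (SE 0.20). MET5 had 24, 15.8 and 17.0 TPM against 13.0, 11.7 and 13.9, with a difference of 0.50 (SE 0.19). These samples did not overlap, and replicate 1 of yox1-9A was the highest of the 24.

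MET3 had 42.3, 31.6 and 38.4 TPM in yox1-9A against 28.0, 26.3 and 29.6 in WT, a difference of 0.40 (SE 0.15). MET10 had 26.9, 20.3 and 20.7 TPM against 18.6, 16.5 and 17.0, a difference of 0.35 (SE 0.16). Neither overlapped with WT. The limma adjusted p-value was 0.987 for MET14 and 0.999 for MET5, MET3 and MET10, and all 4 had unadjusted p below 0.05.

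MET16, the last step before sulfite, had 27.2 ± 2.73 TPM in yox1-9A and 25.3 ± 4.12 in WT, a log2 difference of 0.10 (SE 0.15). MET2 was the only gene of the 9 with a negative difference, at -0.15 (SE 0.17). SAM1 differed by 0.18 (SE 0.20) and SAM2 by 0.22 (SE 0.15). Of the 9 genes, 8 had positive differences, with a median of 0.35 against -0.08 over all tested genes. Unadjusted p was below 0.05 with a higher level for 5 of the 9, against 0.871% of all genes, and 4 of the 9 lay entirely above WT, against 1.74% of all genes. These counts describe a list chosen with results known.

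In the double phosphomutant and in yhp1-13A none of the 9 genes passed the test, none had unadjusted p below 0.05, and limma-voom on the recovered fragments passed none. The share of all genes passing in limma was 0% for yhp1-13A and 0.0158% for the double mutant. The median log2 differences of the 9 genes were -0.07 for yhp1-13A and 0.01 for the double mutant. Over all genes these medians were -0.11 and -0.12, so the values are read against that shift.

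**Figure D3:**
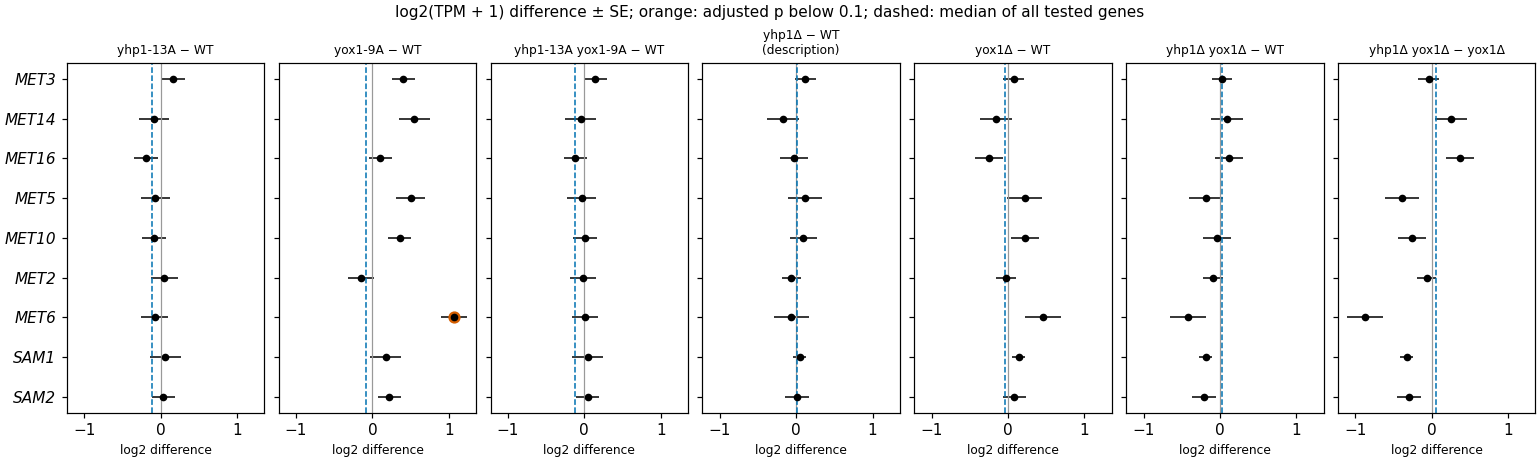
Differences in log2(TPM + 1) (x axis) of the 9 genes other than MET17 in 7 comparisons, with SE bars. Orange marks adjusted p below 0.1, the dashed line is the median of all tested genes, and the yhp1Δ panel is a description with no test. MET6 in yox1-9A, at 1.07, is the only orange point.

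In the deletion set, MET6 had 129, 228 and 214 TPM in yox1Δ (190 ± 53.9) and 138, 172 and 101 in WT (137 ± 35.3). The samples overlapped, yox1Δ replicate 1 lying below 2 of the WT samples, and the difference was 0.46 (SE 0.23, 95% interval -0.05 to 0.97, limma adjusted p = 0.97). None of the 9 genes passed in yox1Δ, none had unadjusted p below 0.05 and limma-voom passed none, while 0.364% of all genes passed. The other 8 genes had log2 differences from -0.25 for MET16 to 0.22 for MET10.

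In yhp1Δ yox1Δ, MET6 had 96.0, 104 and 101 TPM (100.3 ± 3.97), and its log2 difference from WT was -0.42 (SE 0.23, 95% interval -0.93 to 0.09, limma adjusted p = 0.98). SAM1 had 503, 494 and 503 TPM, below each of the WT samples at 573, 618 and 520, and differed by -0.19 on the log2 scale (SE 0.084, limma adjusted p = 0.98). SAM1 was the only 1 of the 9 with samples entirely below WT, as 4.41% of all genes were, and the only 1 with unadjusted p below 0.05, which 1.54% of all genes had with a lower level. None of the 9 passed by limma or limma-voom, against 0.634% of all genes in limma.

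The comparison of yhp1Δ yox1Δ with yox1Δ holds MET17 deleted on both sides while YHP1, LEU2 and the marker at YOX1 differ. MET6 was lower in the double deletion in each sample, with a log2 difference of -0.88 (SE 0.23, 95% interval -1.39 to -0.37), but it missed the threshold (limma adjusted p = 0.22). SAM1 had 615, 651 and 616 TPM in yox1Δ, all above the double deletion, and differed by -0.33 (SE 0.084, limma adjusted p = 0.20). By limma and limma-voom 0 of the 9 passed, against 0.57% of all genes in limma. Unadjusted p was below 0.05 with a lower level for these 2 genes, against 4.39% of all genes, and these 2 lay entirely below yox1Δ, against 8.3% of all genes. MET16 lay entirely above yox1Δ, as 18.3% of all genes did.

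Other settings moved that call. Without yox1Δ replicate 1, whose MET6 level was the lowest of its group, MET6 stood lower by 1.13 (a difference of -1.13, limma adjusted p = 0.056). With the replicate as a block MET6 had limma adjusted p = 0.070 and SAM1 0.091. Across 15 alternatives the MET6 value ranged from 0.021 to 0.62 and the SAM1 value from 0.074 to 0.67. The sulfate genes did not move one way: MET16 was higher in the double deletion by 0.37 (SE 0.18) and MET5 lower by 0.39 (a difference of -0.39, SE 0.22), and neither passed.

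Mean MET6 was highest in yox1-9A and yox1Δ, which were also the groups without LEU2, the isopropylmalate dehydrogenase gene of leucine synthesis. LEU2 was at 0.044 TPM on average in yox1-9A and 0.043 in yox1Δ, and from 56.8 in yhp1Δ yox1Δ to 126 in WT of the deletion set in the other groups. In the 6 samples of strains without LEU2, MET6 had a lowest value of 129, a median of 219 and a highest value of 295 TPM. In the 18 samples of strains with LEU2, the lowest was 92.4, the median 110 and the highest 172 TPM. The ranges overlapped through yox1Δ replicate 1. In these groups a YOX1 mutation with YHP1 unmutated, the absence of LEU2 and the absence of the YHP1 tag coincide and cannot be told apart.

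**Figure D4:**
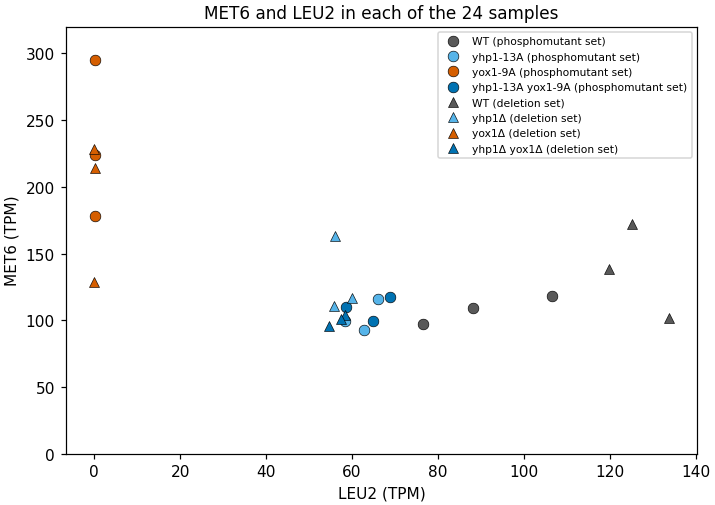
MET6 TPM (y axis) against LEU2 TPM (x axis) in each of the 24 samples, circles for the phosphomutant set and triangles for the deletion set, coloured by genotype. The 6 yox1-9A and yox1Δ samples lie at LEU2 near 0 with MET6 from 129 to 295 TPM, and the other 18 lie at MET6 from 92.4 to 172 TPM.

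Genes with mean TPM of at least 1, outside the 10 genes and the 42 further pathway genes described below, were ranked by similarity. The reference was the mean of the standardised log2(TPM + 1) values of the 9 genes. Across the 12 phosphomutant-set samples the most similar were LEU4 (Pearson r = 0.93), ILV3 (0.93), BAT1 (0.92), HPF1 (0.91) and FMP52 (0.91). LEU4 encodes an isopropylmalate synthase, ILV3 a dihydroxyacid dehydratase and BAT1 a branched-chain aminotransferase, all of branched-chain amino acid synthesis. In the deletion set the most similar were PTA1 (0.96), YPL162C (0.95), ICR1, PUF2 and ECM27 (each 0.94). No gene was among the 5 in both sets. These are descriptions over samples that share groups, depth and GC dependence. Within the list, MET6 followed the average of the other 8 with r = 0.90 among phosphomutant-set samples and 0.74 among deletion-set samples, and MET16 with 0.11 and -0.52.

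The rest of the sulfur and methionine pathway was examined with 42 further genes, of which 41 passed the filter on low values in each set. None of the 41 passed the test in any of the 6 tested comparisons, by limma or limma-voom. In yox1-9A, 3 of the 41 had unadjusted p below 0.05 with a higher level, against 0.871% of all genes, and 0 with a lower level, against 2.94%. MMP1, an S-methylmethionine permease gene, had 27.2, 20.1 and 27.4 TPM against 16.7, 17.8 and 18.8 in WT, with no overlap and a difference of 0.45 (SE 0.15, limma adjusted p = 0.91). The other 2 were SAM3, an S-adenosylmethionine permease gene, at 0.35 (SE 0.15), and MHT1, an S-methylmethionine-homocysteine methyltransferase gene, at 0.32 (SE 0.14). The median of the 41 was 0.04 against -0.08 over all genes.

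In yhp1Δ yox1Δ against yox1Δ, 5 of the 41 had unadjusted p below 0.05 with lower levels, against 4.39% of all genes, and 1 with a higher level, against 8.67%. The 5 were SAM3 (-0.47, SE 0.15), HOM2 (-0.37, SE 0.11) and HOM3 (-0.32, SE 0.14) of homoserine synthesis, CYS3 (-0.32, SE 0.090), the cystathionine gamma-lyase gene, and MEU1 (-0.20, SE 0.088) of methylthioadenosine salvage. ADI1, a dioxygenase gene of the salvage pathway, was the gene with a higher level, at 0.66 (SE 0.28). In yhp1-13A, the double phosphomutant, yox1Δ and the double deletion against WT, 0 of the 41 had unadjusted p below 0.05.

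Between yhp1Δ and WT the largest of the 41 differences were small. ADI1 differed by -0.29 (SE 0.28), the sulfate permease gene SUL1 by 0.21 (SE 0.17), the cysteine transporter gene YCT1 by 0.16 (SE 0.16) and SAM3 by -0.15 (SE 0.15). YCT1 had 16.8, 18.9 and 17.7 TPM in yhp1Δ and 15.7, 15.2 and 16.6 in WT, and these samples did not overlap. Of the 41, 2 lay entirely above WT, YCT1 and MET22 (0.04, SE 0.086), against 1.68% of all genes. The median of the 41 was 0.0018 against 0.013 over all genes. In bulk RNA from asynchronous cells, fewer cells at a stage and less RNA per cell cannot be told apart, and this holds for every level given.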

How the data were processed

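Total RNA was taken from asynchronous cultures. Per the labels the libraries were polyA depleted, whereas the methods of the study give poly-A purification. The authors aligned paired reads with STAR 2.5.3a to R64, counted exon fragments with featureCounts 1.5.2 and deposited TPM values, and how fragments became TPM is not given in the sources used here. Values multiplied by gene length gave whole fragments for 100% of values (within 0.05). Levels were tested with limma 3.58.1 in R 4.3.3 on log2(TPM + 1), per set, over genes with mean TPM of at least 1, with 4 groups in 1 fit and Benjamini-Hochberg adjustment over all genes, called at adjusted p below 0.1. Fold changes on this scale understate changes of low genes. The smallest exact two-sided permutation p for 3 against 3 samples is 0.1, so none was run. Alternatives were pseudocount, filter, scaling, replicate block, 2-group fits, each sample left out and limma-voom. The script was tested on simulated data. Members, wider list and lists of comparisons were chosen with earlier results of these data known. All 10 members were named. From the wider list, genes called in a tested comparison and the 4 with the largest difference between yhp1Δ and WT were named, together with the nearest annotated genes to MET17 and the 5 most similar genes per set. Genes with unadjusted p below 0.05, and LEU2, were added after their values were seen. Sequences come from the RefSeq R64 assembly. Replicate numbers paired yox1-9A with WT (correlations of deviations 0.52 to 0.83) and yhp1Δ with WT (0.48 to 0.75), with no shared culture or day stated in the labels. The numbers did not pair the other groups with WT in every replicate.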

Additional observations from a re-analysis of the deposited data

How the results depend on the processing

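The count of the 9 genes passing was 1 for yox1-9A against WT (MET6). It was 0 with only the 2 groups in the fit and 0 to 1 when each sample was left out in turn. For yhp1Δ yox1Δ against yox1Δ the count was 0, and it was 2 (MET6 and SAM1) with the replicate block, where the numbers did not pair the samples (0.079 to 0.31), 2 with a covariate for how each sample depends on GC, an alternative chosen after seeing the data, and 0 to 1 when each sample was left out. The cause was not tested. No result changed sign in a called value, and the replicate block changed no other call among the 9 genes. Over all genes the calls in yox1-9A ranged from 6 to 68, in yox1Δ from 14 to 43, in yhp1Δ yox1Δ from 17 to 58, in yhp1Δ yox1Δ against yox1Δ from 15 to 299, in yhp1-13A from 0 to 3 and in the double phosphomutant from 0 to 29. With median-of-ratios scaling MET6 in yox1-9A was at 1.17 (limma adjusted p = 0.066). Precision is limited by 3 samples and 1 strain per group. The size of the MET17 difference rests on few fragments in strains where the gene is deleted.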

Other observations

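Apart from MET28, the regulators of the pathway examined here were measured at moderate levels in all groups. In WT of the phosphomutant set, MET31 was at 61.4 TPM, MET4 at 49.4, CBF1 at 42.7, the ubiquitin ligase gene MET30 at 28.6 and MET32 at 27.1 TPM (means, n = 3). In yox1-9A their log2(TPM + 1) differences from WT were -0.21 for MET4, -0.20 for MET32, -0.15 for MET31, -0.12 for CBF1 and -0.08 for MET30, with limma adjusted p of 0.99 or above and overlapping samples for each. MET28, a cofactor of Met4, was listed at 0 to 1.18 TPM in every sample and did not pass the filter on low values.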
